A study of Mus musculus with 9 samples.

Results

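The genes described here are 9 nuclear receptor cofactors and orphan nuclear receptors, chosen by name: the p160 coactivators Ncoa1, Ncoa2 and Ncoa3, the Mediator subunit Med1, the corepressors Ncor1 and Nrip1, and the orphan receptors Nr2c1, Nr2c2 and Nr6a1. They are 9 of the 18194 genes named on the array. Every probe set (the group of short oligonucleotides that together report 1 transcript) whose platform annotation gives 1 of these symbols alone was taken. That rule found 38 of 45101 probe sets, for 8 of the 9 genes. No probe set carried the symbol Ncor1 alone, and its level is not analysed here. A signal filter on the mean over all arrays left 29 of the 38, against 27022 of all probe sets. Of the 9 under it, Med1, Nrip1 and Nr2c2 had 2 each, and Ncoa1, Nr2c1 and Nr6a1 had 1 each.

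Arrays were made from spermatogonia of adult Balb/C mice kept on a normal diet (control, 3 arrays), on a diet lacking vitamin A (VAD) for 18 weeks (3 arrays), or on that diet for 25 weeks (3 arrays). No genetic change is named in the labels, and the age of the control mice is not stated there. Germ cells of 2 mice were pooled per preparation, cultured overnight, sorted by sedimentation and reported as over 90% pure, and 100 ng of RNA went through 2 rounds of amplification. The labels do not say whether the 3 arrays of a group came from different preparations, so the spread behind each p-value may be technical.

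Nuclear receptors are transcription factors, many of which are switched by a small lipophilic ligand. Retinoic acid, made from vitamin A, is the ligand of the retinoic acid receptors, and it drives spermatogonia to differentiate. A receptor with ligand recruits p160 coactivators and, through Med1, the Mediator complex that contacts RNA polymerase. Without ligand many receptors hold corepressors such as Ncor1. Nrip1 (RIP140) is unusual in being recruited by ligand-bound receptors and repressing. Nr2c1 (TR2), Nr2c2 (TR4) and Nr6a1 (germ cell nuclear factor) are orphan receptors, which bind direct repeats of the hexamer AGGTCA, as retinoic acid receptors do, and act largely as repressors. Nr2c2 and Nr6a1 are both abundant in male germ cells.

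The promoters of the 2 orphan receptors with the clearest array differences are shown because the hexamer AGGTCA, bound by orphan receptors of this kind and by retinoic acid receptors, can be looked for in them. Each window, credited to RefSeq in build GRCm38.p6, spans 250 bases before to 50 bases after an annotated start, written 5′ to 3′ on the gene's strand, and AGGTCA read on either strand is in capitals. Nr6a1 has 2 annotated starts, at chr2:38926412-38926711 on the minus strand and, downstream, at chr2:38784466-38784765 on the same strand. Nr2c2 has 1, at chr6:92092183-92092482 on the plus strand.
Nr6a1 upstream start: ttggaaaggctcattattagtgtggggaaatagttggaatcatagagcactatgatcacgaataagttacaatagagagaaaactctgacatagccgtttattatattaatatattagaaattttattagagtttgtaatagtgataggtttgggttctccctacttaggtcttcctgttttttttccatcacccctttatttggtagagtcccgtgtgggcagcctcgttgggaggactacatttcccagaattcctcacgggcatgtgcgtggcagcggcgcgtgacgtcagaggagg
Nr6a1 downstream start: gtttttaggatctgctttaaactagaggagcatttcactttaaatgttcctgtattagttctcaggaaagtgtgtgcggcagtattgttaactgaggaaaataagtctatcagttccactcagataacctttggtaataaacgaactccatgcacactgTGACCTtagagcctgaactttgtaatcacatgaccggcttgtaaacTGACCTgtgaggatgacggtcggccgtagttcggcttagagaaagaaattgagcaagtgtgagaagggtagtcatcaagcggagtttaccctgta
Nr2c2: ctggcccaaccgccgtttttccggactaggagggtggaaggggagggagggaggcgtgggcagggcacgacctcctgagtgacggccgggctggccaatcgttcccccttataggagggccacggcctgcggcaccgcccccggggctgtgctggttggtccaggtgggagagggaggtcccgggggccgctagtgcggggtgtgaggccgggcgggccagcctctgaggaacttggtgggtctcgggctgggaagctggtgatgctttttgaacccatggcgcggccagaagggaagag
The downstream Nr6a1 window held AGGTCA at 2 places, both on the opposite strand (printed as TGACCT), beginning at -91 and -45 from the start. No other window of the 10 found for 7 of the 9 genes held it. Of 32851 windows of the same length over the genome, 16.3% held the hexamer. None of the 10 held a direct repeat of it with 0, 1, 2 or 5 bases between (AGGTCA, then that many bases of any kind, then AGGTCA, on both strands), and 0.00609% to 0.0396% of all windows held one, depending on the spacing. A match is a run of letters and not a site shown to be bound. No window was found for Ncoa2 and Ncoa3.

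Array quality bears on every value below. Control replicate 3 and VAD 25-week replicate 3 had trimmed mean signals of 22.9 and 23.2, against 55.2 to 186 on the other 7 arrays, and are called the low-signal pair. The ratio of 3′ to 5′ Gapdh signal was 4.36 to 5.61 on the pair and 3.08 to 4.11 elsewhere. For Actb that ratio ran the other way, at 3.32 to 4.95 on the pair and 4.81 to 7.92 elsewhere, and the highest values, 7.82 and 7.92, were those of VAD 25-week replicates 1 and 2, beside 4.92 and 5.49 on control replicates 1 and 2. VAD 25-week replicates 1 and 2 carried poly-A control signal of 303 and 379 against 5.31 to 11.6 on the rest. No control or VAD 18-week array carried such signal, so outside the low-signal pair it cannot be told apart from 25 weeks of VAD. Of the Sertoli cell markers, 7 of 13 measured were higher at 18 weeks and 9 at 25 weeks, with a summed signal of 254 to 349 on control arrays, 834 to 2586 at 18 weeks and 1019 to 1883 at 25 weeks, while Sox9, a defining Sertoli gene, was under the signal filter. Of 8 spermatid markers 3 were lower at 25 weeks, with sums of 4190 to 14150 on control and 2691 to 12670 on 25-week arrays. Of 7 spermatocyte markers 2 were higher at 18 weeks, and 2 were higher and 2 lower at 25 weeks. Their sums, the largest of the lists, were 18860 to 25430 on control, 25040 to 26610 at 18 weeks and 20320 to 23770 at 25 weeks. Of 4 measured Leydig markers 1 was higher at 25 weeks, with sums of 32 to 132 on control, 119 to 530 at 18 weeks and 272 to 301 at 25 weeks. Sums of different genes do not give the share of each cell type. Beside the marker counts of this paragraph, 1.37% of all 13616 genes were called higher and 0.147% lower at 18 weeks. At 25 weeks 9.08% were higher and 8.01% lower. Of 5 measured macrophage markers 0 were called at 18 weeks and 4 were higher at 25 weeks, with sums of 117 to 266 on control, 135 to 193 on 18-week and 221 to 335 on 25-week arrays, while Cd68, C1qa and Ptprc, defining genes of these cells, were under the filter. All 7 markers of differentiating spermatogonia passed the filter, with 2 higher and 1 lower at 25 weeks. Their sums were 828 to 1742 on control, 1223 to 1288 on 18-week and 593 to 859 on 25-week arrays. Of 8 markers of the undifferentiated state on the array 5 passed, while Sall4, Lin28a and Ret did not. Among those 5, 1 was higher at 18 weeks and 1 at 25 weeks. The sums over all 8 were 346 to 408 on control, 548 to 672 at 18 weeks and 652 to 760 at 25 weeks. The part of these markers in the differences below was not tested, and in bulk RNA fewer cells of a type and less RNA per cell cannot be told apart.

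Values are log2(signal + 3.259) after quantile normalization between arrays, and a log2 difference of 1 is a doubling on that scale, which understates changes of weak signals. Differences come from limma fitted to all 27022 probe sets over the 9 arrays with group and the low-signal pair as terms, and p-values are Benjamini-Hochberg adjusted over all of them, with 0.05 as threshold. The pair holds 1 control and 1 VAD 25-week array and no VAD 18-week array. At 25 weeks the fitted difference therefore equals the difference of the group means, and at 18 weeks it does not. With group as the sole term, limma called 0 of the 29 probe sets, and 0 of all probe sets, in any comparison. At an unadjusted p under 0.05 that fit gave 3 of the 29 at 18 weeks (10.3%, beside 7.25% of all probe sets), 5 at 25 weeks (17.2%, beside 11.9%) and 3 between 25 and 18 weeks (10.3%, beside 3.83%).

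At 25 weeks of VAD, 7 of the 29 probe sets, in 6 of the 8 genes, passed the threshold. Ncoa2, Nr2c2 and Nr2c1 each had 1 probe set that was higher, and Nr6a1, Nr2c2, Ncoa3 and Med1 each had 1 that was lower. These were 24.1% of the probe sets of the group, beside 14.9% of all probe sets called in this comparison, and the difference between those shares was not tested. The 3 higher probe sets made up 10.3%, beside a background of 8.54%, and the 4 lower ones 13.8%, beside 6.32%. Ncoa1 and Nrip1 had no probe set past the threshold. With the replicate number as a block, 4 of the 29 passed, beside 9.62% of all probe sets. The median difference of the 29 was -0.16, and that of all kept probe sets -0.01.

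At 18 weeks limma called 0 of the 29 probe sets, beside 1.47% of all probe sets. At an unadjusted p under 0.05 there were 7 (24.1%, beside 16.5% of all probe sets), and the smallest adjusted p was 0.0544, for Nr2c1. Without the low-signal pair 2 passed, Ncoa2 higher and Nr2c1 lower, beside 3.98% of all probe sets. Between 25 and 18 weeks of VAD limma again called 0 of the 29, beside 0% of all probe sets, with 4 at an unadjusted p under 0.05 (13.8%, beside 11.5%). The 2 deficiency groups were thus not shown to differ for any of these genes, and the half-width of the 95% interval of that difference had a median of 0.59 over the 29. Both diet comparisons share the control arrays.

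**Figure D1:**
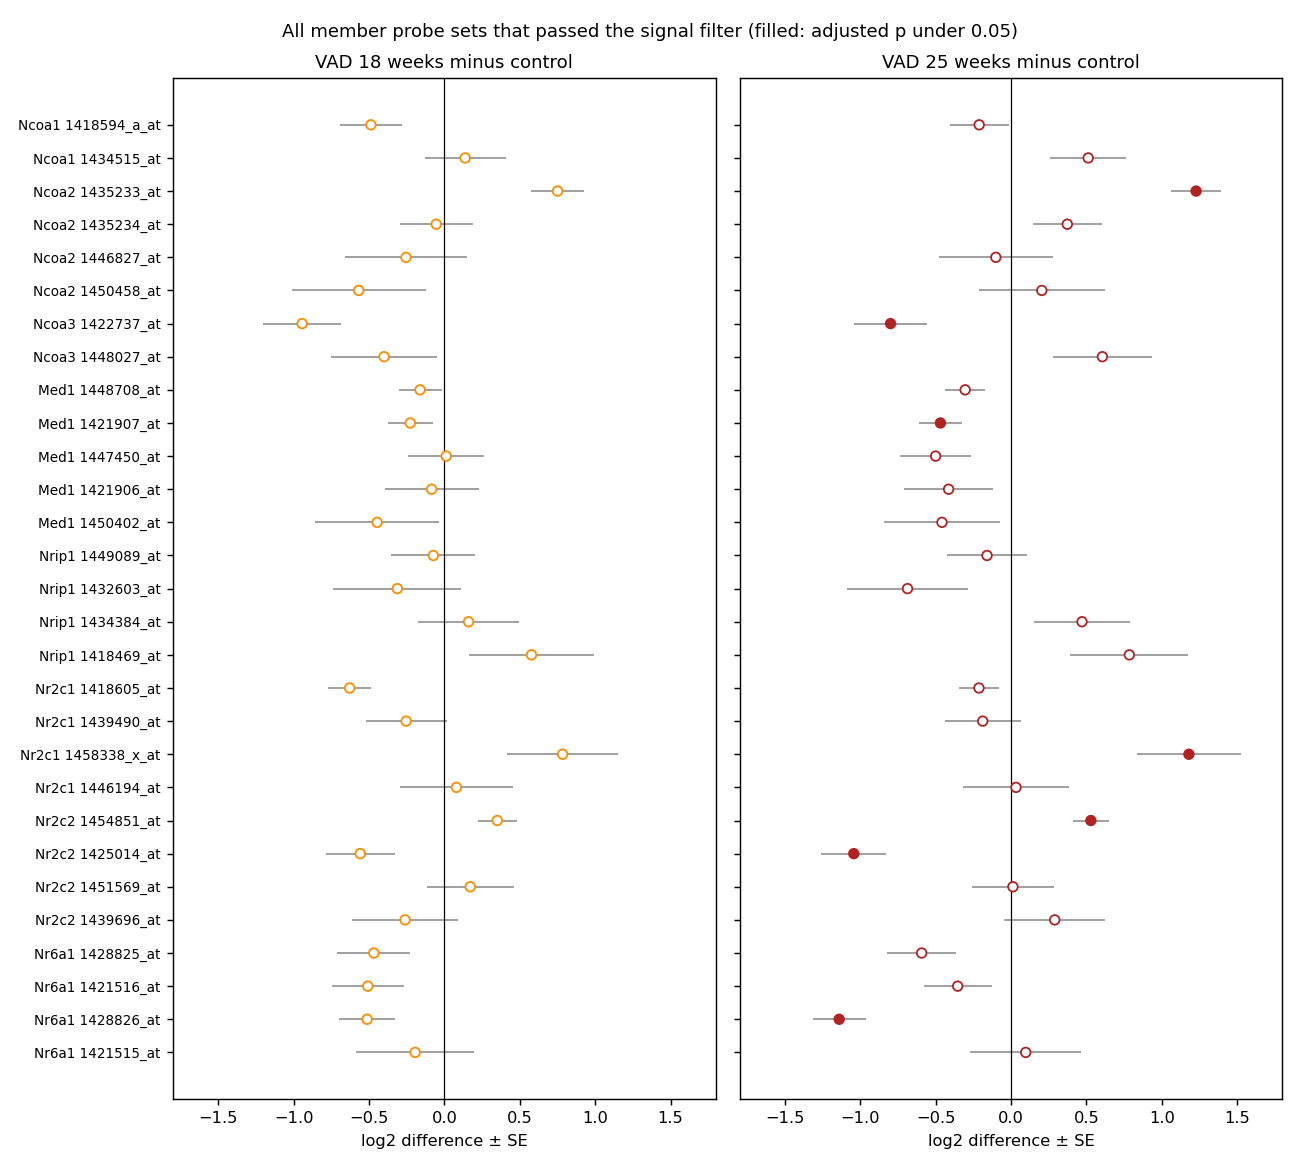
Log2 difference from control with its standard error (horizontal axis) for each of the 29 probe sets that passed the signal filter, at 18 weeks (left) and 25 weeks (right) of VAD, from limma with the low-signal pair as a term. Filled points have an adjusted p under 0.05, 0 on the left and 7 on the right, and the probe sets of a gene often lie on both sides of 0.

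The sign of 3 of the 4 lower probe sets depends on the scaling. The arrays as deposited differ in total signal, and on that scale the median difference of all kept probe sets at 25 weeks was 0.93, against -0.01 after quantile normalization and 0.08 after median centring. On the deposited scale 9 of the 29 probe sets were called higher, beside 39.1% of all probe sets, and 0 lower, beside 0.0259%. After median centring 3 were higher, beside 10.4% of all probe sets, and 2 lower, beside 3.02%. Those 2 were Nr6a1 1428826_at and Nr2c2 1425014_at, while Ncoa3 1422737_at, at -0.56 (limma adjusted p = 0.17), and Med1 1421907_at, at -0.32 (adjusted p = 0.269), no longer passed. The decreases below are relative to the bulk of probe sets on the same arrays, and those of Ncoa3 and Med1 were called with quantile normalization and not with median centring.

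**Figure D2:**
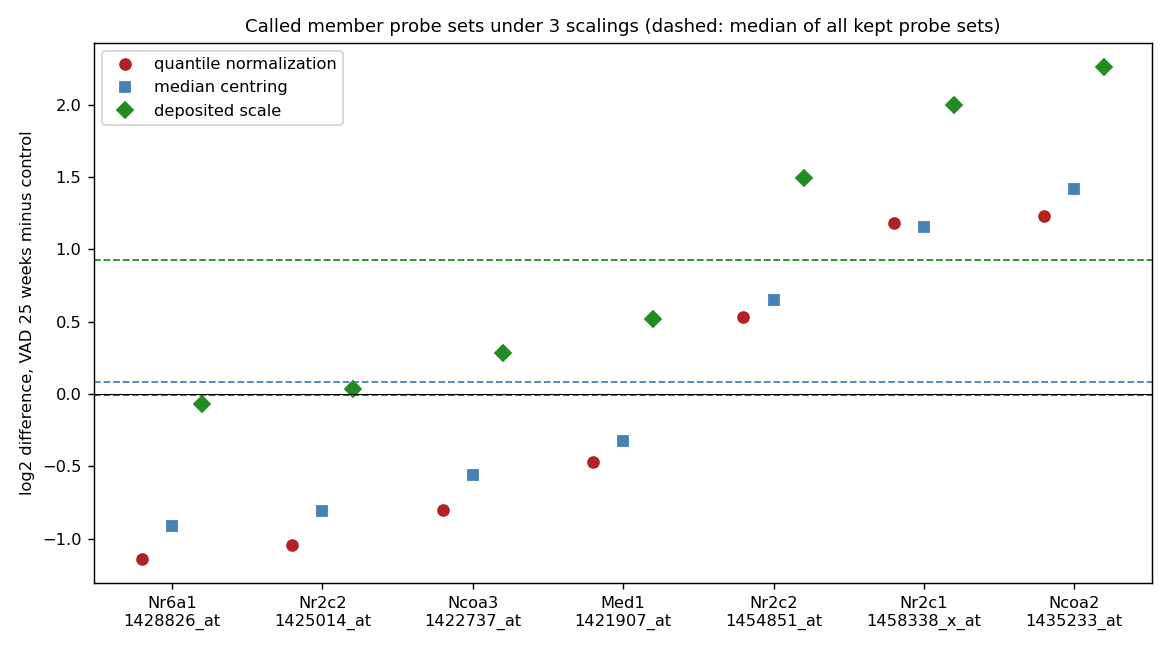
Log2 difference between VAD 25 weeks and control (vertical axis) of the 7 called probe sets under quantile normalization (circles), median centring (squares) and the deposited scale (diamonds). Dashed lines give the median of all kept probe sets under each scaling, -0.01, 0.08 and 0.93, and the 4 probe sets that were lower after quantile normalization lie below the dashed line of each scaling.

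Among the p160 coactivators, Ncoa2 (TIF2, GRIP1) had the called probe set that passed in the most alternative settings. Its probe set 1435233_at read 6.58, 6.81 and 7.76 on the control arrays. The VAD 18-week arrays read 7.39, 7.67 and 7.15 and the VAD 25-week arrays 7.85, 7.84 and 9.13. The third control value and the third 25-week value are those of the low-signal pair, and each was the highest of its group. Every 25-week array lay above every control array, narrowly in the case of control replicate 3, and the 18-week arrays overlapped with control. The 25-week difference was 1.23 ± 0.17 (SE; 95% interval 0.86 to 1.59), or 2.34-fold, with an adjusted p of 0.00153 from limma. It was 1.37 within the low-signal pair and 1.15 within the other arrays, 2.26 on the deposited scale, and past the threshold in 20 of 21 alternative settings, the exception being group as the sole term (adjusted p = 0.286). At 18 weeks the difference was 0.75 ± 0.18 (adjusted p = 0.061), and 0.76 without the pair (adjusted p = 0.0475).

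None of the other 3 Ncoa2 probe sets passed the threshold at 25 weeks. 1435234_at, designed against the same target transcript in the platform annotation, read 6.28, 6.20 and 6.07 on control and 6.67, 6.39 and 6.60 on 25-week arrays. Those groups did not overlap, yet the difference of 0.37 ± 0.23 was not past the threshold (adjusted p = 0.296). Differences of -0.10 ± 0.38 for 1446827_at and 0.20 ± 0.42 for 1450458_at also missed it. The last rested on the pair, where it was 1.70, while the other arrays gave -0.54.

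Ncoa3 (SRC-3), the p160 coactivator known from growth and hormone signalling, was lower on 1422737_at. It read 6.58, 6.81 and 6.72 on control arrays, 6.31, 5.76 and 5.33 at 18 weeks and 5.99, 5.98 and 5.75 at 25 weeks. All 6 VAD arrays lay below all 3 control arrays. At 25 weeks the level fell by 0.80 ± 0.24 on the log2 scale (limma adjusted p = 0.0473; control 1.74 times higher), and on the deposited scale the difference turned to 0.28, below the median of all probe sets there. The 18-week difference was -0.94 ± 0.26 (adjusted p = 0.0968). This call is marginal: the adjusted p was 0.11 without the low-signal pair and 0.0592 with the replicate number as a block, and it missed the threshold without any single control or 25-week array, or without VAD 18-week replicate 2, at 0.0693 to 0.127. The second probe set, 1448027_at, disagreed in sign, at 0.61 ± 0.33 (adjusted p = 0.243), with control values of 4.85, 5.62 and 4.84 and 25-week values of 5.61, 5.82 and 5.69.

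Ncoa1 (SRC-1), the founding p160 coactivator, had 2 probe sets with enough signal. 1418594_a_at read 5.91, 5.89 and 5.77 on control, 5.25, 5.53 and 5.54 at 18 weeks and 5.77, 5.71 and 5.46 at 25 weeks. Both VAD groups lay below control, at 25 weeks with the highest VAD and the lowest control value equal to 2 decimals, with differences of -0.49 ± 0.21 at 18 weeks (adjusted p = 0.27) and -0.21 ± 0.20 at 25 weeks (adjusted p = 0.502), neither past the threshold. The other, 1434515_at, gave 0.51 ± 0.25 at 25 weeks (adjusted p = 0.2), with 1.09 in the low-signal pair and 0.22 elsewhere.

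Med1, the Mediator subunit that docks on liganded receptors, had 5 probe sets past the signal filter, and all 5 differences at 25 weeks were below 0 after quantile normalization and above 0 on the deposited scale. Only 1421907_at passed. It read 8.40, 8.36 and 7.72 on control arrays and 8.25, 8.00 and 8.05 at 18 weeks. At 25 weeks it read 7.85, 7.76 and 7.46. Control replicate 3, of the low-signal pair, lay among the 25-week values, so the groups overlapped, but the 25-week mean was lower within each array set, with a difference of -0.26 in the pair and -0.57 elsewhere. The level fell by 0.47 ± 0.14 on the log2 scale (limma adjusted p = 0.045), and the difference turned to 0.52 on the deposited scale. With the replicate block the adjusted p was 0.0844, and it rose to 0.0634 to 0.172 when control replicate 1 or 2, VAD 18-week replicate 2, or VAD 25-week replicate 1 or 2 was left out.

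The 2 further Med1 probe sets on the same target, 1421906_at and 1450402_at, gave -0.41 ± 0.29 and -0.46 ± 0.39, neither past the threshold. For 1450402_at the array sets disagreed, with 0.83 in the low-signal pair and -1.10 in the other arrays, and without the pair it was -1.21 (adjusted p = 0.0274). Of the others, 1448708_at gave -0.30 ± 0.13 (adjusted p = 0.152), and 1447450_at gave -0.50 ± 0.24 (adjusted p = 0.179). With 1 of 5 past the threshold, the sign was shared by the Med1 probe sets and the call was not.

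Nrip1, the ligand-dependent corepressor, had 4 probe sets with enough signal and none past the threshold in any comparison. Its differences at 25 weeks ran from -0.69 ± 0.40 for 1432603_at to 0.78 ± 0.39 for 1418469_at, with adjusted p-values of 0.275 and 0.203. The probe set 1418469_at read 3.89, 2.71 and 2.04 on control arrays and 4.29, 3.80 and 2.91 at 25 weeks, with overlap. 1449089_at, annotated to the same target, gave -0.16 ± 0.26, and 1434384_at gave 0.47 ± 0.32. With 95% intervals as wide as -1.56 to 0.19 and -0.07 to 1.64, a change of Nrip1 in either direction is within the error of these arrays.

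**Figure D3:**
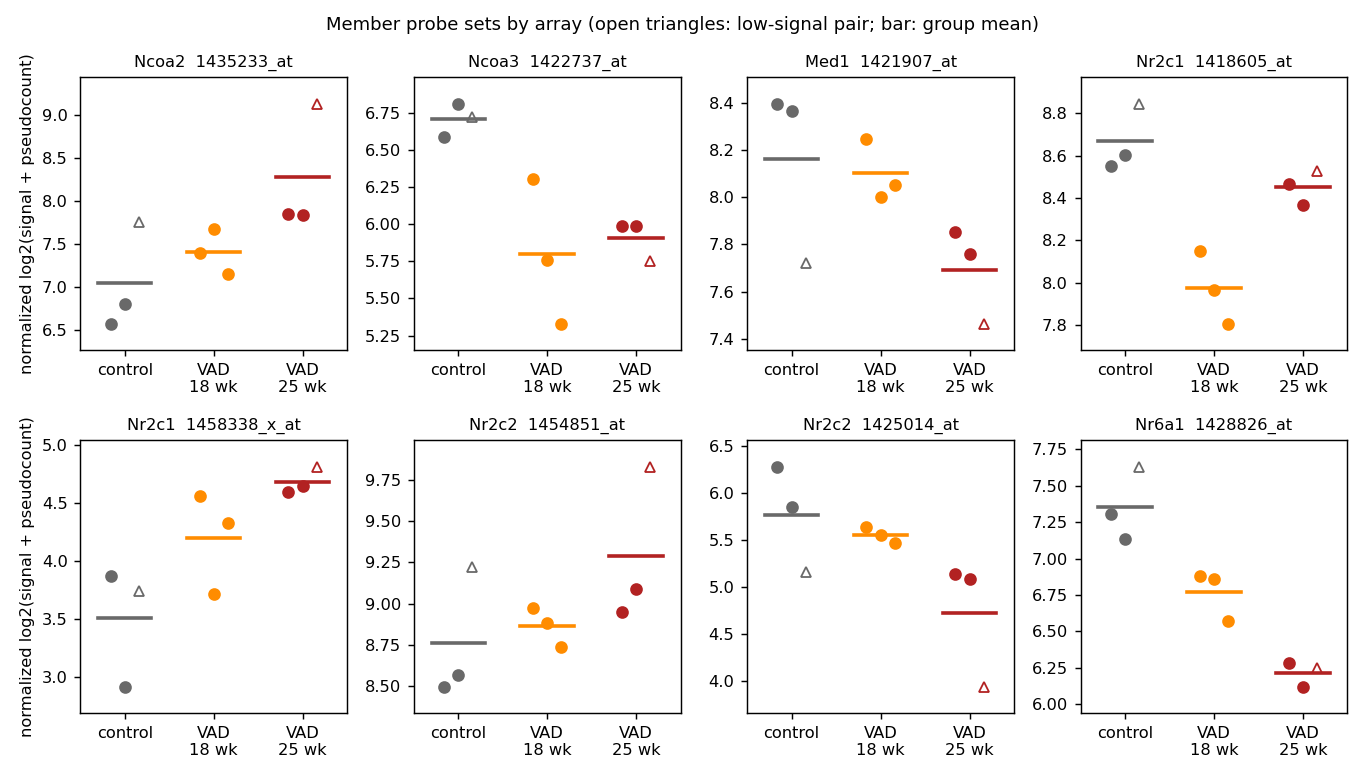
Normalized log2(signal + pseudocount) (vertical axis, own scale in each panel) of the 7 probe sets called at 25 weeks and of Nr2c1 1418605_at, by array, in control, VAD 18 weeks and VAD 25 weeks. Open triangles are the low-signal pair, horizontal bars are group means, and Nr6a1 1428826_at steps down from control through 18 to 25 weeks with no overlap between groups.

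Nr6a1, which represses pluripotency genes in early embryos and is expressed in germ cells, had the largest decrease of the group. 1428826_at read 7.31, 7.13 and 7.63 on control arrays. It read 6.88, 6.86 and 6.57 at 18 weeks and 6.29, 6.12 and 6.25 at 25 weeks. No 2 of the 3 groups overlapped, and the low-signal arrays sat with their own groups. At 25 weeks the level fell by 1.14 ± 0.18 on the log2 scale (95% interval -1.52 to -0.76; control 2.20 times higher; limma adjusted p = 0.00247), while on the deposited scale the difference was -0.07 against the median of 0.93 for all probe sets. The normalized difference was -1.38 within the low-signal pair and -1.02 within the other arrays. The threshold was passed in 19 of 21 alternative settings, the exceptions being group as the sole term (adjusted p = 0.139) and the deposited scale (0.892). At 18 weeks the difference was -0.51 ± 0.19 (adjusted p = 0.198), and between 25 and 18 weeks -0.63 (adjusted p = 0.23).

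The second Nr6a1 probe set on the same target, 1428825_at, read 8.46, 8.23 and 8.75 on control, 7.94, 8.12 and 8.20 at 18 weeks and 8.33, 8.02 and 7.32 at 25 weeks. Its 25-week difference of -0.59 ± 0.23 (adjusted p = 0.104) came mostly from the low-signal pair, at -1.43, with -0.17 in the other arrays. 1421516_at gave -0.35 ± 0.22 (adjusted p = 0.317), and 1421515_at gave 0.10 ± 0.37. At 18 weeks 1428825_at, 1421516_at and 1428826_at each lay below control without overlap, with differences of -0.47, -0.51 and -0.51, and none of them passed the threshold. They account for 3 of the 6 probe sets of the group, in 4 genes, whose 18-week and control arrays did not overlap (20.7%, beside 19.4% of all probe sets). At 25 weeks 8 probe sets, in 6 genes, did not overlap with control (27.6%, beside 16.2% of all probe sets).

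Nr2c2, the testicular receptor TR4, had probe sets that were called in opposite directions. 1454851_at read 8.49, 8.57 and 9.22 on control and 8.97, 8.88 and 8.73 at 18 weeks. At 25 weeks it read 8.95, 9.09 and 9.83. Control replicate 3 exceeded VAD 25-week replicates 1 and 2, so the groups overlapped, while within each array set VAD was higher, by 0.61 in the pair and 0.49 elsewhere. The difference was 0.53 ± 0.12 (1.44-fold; limma adjusted p = 0.0147), 1.50 on the deposited scale, and it missed the threshold without control replicate 1 (0.0546) or VAD 25-week replicate 2 (0.0708).

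The Nr2c2 probe set 1425014_at fell instead. It read 6.28, 5.85 and 5.16 on control arrays, 5.63, 5.55 and 5.47 at 18 weeks and 5.14, 5.09 and 3.94 at 25 weeks. The 25-week arrays lay below all control arrays, by little in the case of control replicate 3. At 25 weeks the level fell by 1.04 ± 0.22 on the log2 scale (control 2.06 times higher; limma adjusted p = 0.00975), and the difference was 0.03 on the deposited scale, where its sign turned. It was past the threshold in 19 of 21 alternative settings, group alone (adjusted p = 0.36) and the deposited scale (0.951) being the others.

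Per array, the log2 value of 1454851_at minus that of 1425014_at was 2.22, 2.71 and 4.06 on control, 3.34, 3.33 and 3.26 at 18 weeks and 3.81, 4.00 and 5.89 at 25 weeks. The mean was 3.00 ± 0.95 (SD, n = 3) on control and 4.57 ± 1.15 (SD, n = 3) at 25 weeks, and the difference of 1.57 had p = 0.3 in a two-sided exact permutation test, where 0.1 is the smallest p that 3 against 3 arrays can give. That test takes no account of the low-signal pair. The 2 probe sets were chosen because they were called in opposite directions on these same arrays. The direction of the difference was therefore set by the choice, and the values here are a description and not independent support. The difference was 1.83 within the pair and 1.44 within the other arrays, and above 0 for each of the 3 same-numbered pairs of arrays. On the deposited scale it was 1.46, with the exact permutation p at that minimum of 0.1. The remaining Nr2c2 probe sets did not pass the threshold. 1451569_at, on the same annotated target as 1425014_at, gave 0.01 ± 0.27 (adjusted p = 0.98), and 1439696_at gave 0.29 ± 0.33 (adjusted p = 0.599). Of the pair of probe sets on that target, only 1425014_at passed.

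Nr2c1 (TR2), the close relative and dimer partner of Nr2c2, had its lowest values at 18 weeks on 1418605_at. It read 8.55, 8.60 and 8.84 on control and 8.15, 7.97 and 7.81 at 18 weeks, and 8.47, 8.37 and 8.53 at 25 weeks. Each VAD group lay below control and the 18-week arrays lay below the 25-week arrays, with no overlap. The 18-week difference of -0.63 ± 0.14 (95% interval -0.94 to -0.32) missed the threshold at an adjusted p of 0.0544 and passed it without the low-signal pair (0.0398). At 25 weeks the difference was -0.21 ± 0.14 (adjusted p = 0.317), and from 18 to 25 weeks 0.42 (adjusted p = 0.295).

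A second Nr2c1 probe set, 1458338_x_at, whose suffix marks oligonucleotides that can bind other transcripts, went the opposite way. It read 3.87, 2.91 and 3.74 on control, 4.56, 3.71 and 4.33 at 18 weeks and 4.60, 4.65 and 4.81 at 25 weeks, and the 25-week arrays exceeded all control arrays. The difference was 1.18 ± 0.35 (limma adjusted p = 0.0416). Its signals were near the pseudocount, and the size moved with it, to 0.67 with a pseudocount of 16 and 1.40 with a pseudocount of 1, past the threshold both times. The adjusted p was 0.0653 without the pair and 0.0652 with the replicate block, and leaving out any 1 array other than control replicate 1 or VAD 18-week replicate 2 gave 0.0509 to 0.13. The other Nr2c1 probe sets, 1439490_at and 1446194_at, gave -0.19 ± 0.25 and 0.03 ± 0.35, neither past the threshold.

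**Figure D4:**
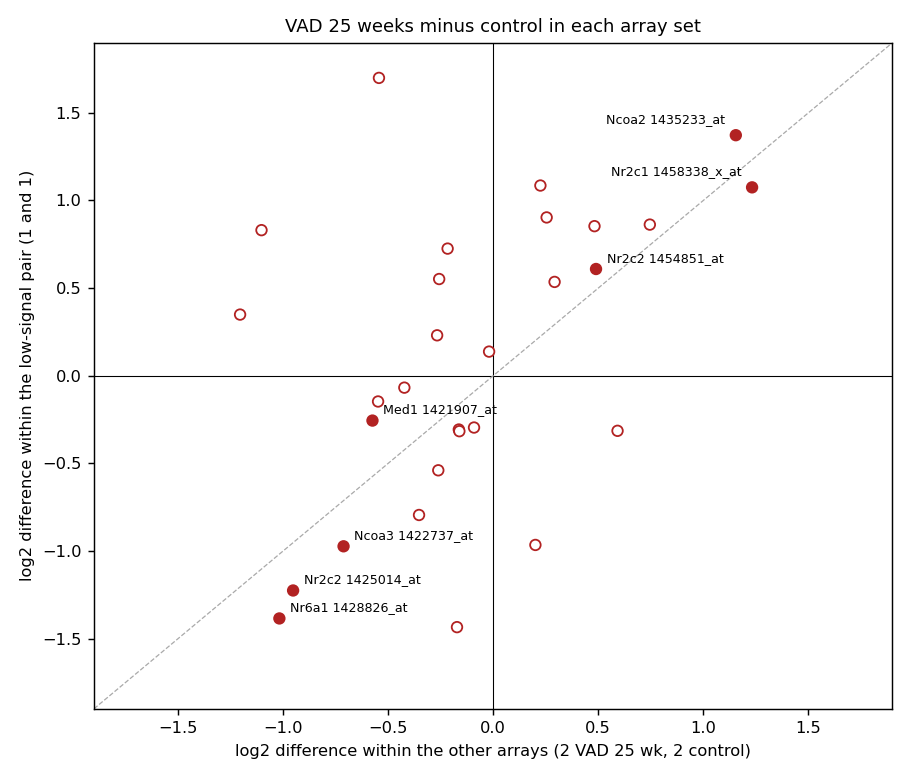
Log2 difference between VAD 25 weeks and control within the low-signal pair (vertical axis, 1 array each) against that within the other arrays (horizontal axis, 2 arrays each) for the 29 probe sets. Filled points are the 7 called probe sets, which lie on the same side of 0 on both axes, as the call itself favours; open points such as Ncoa2 1450458_at and Med1 1450402_at lie on opposite sides.

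Other genes of the same machinery were read from lists by role, with 1 probe set per gene, 83 of 107 genes passing the filter. At 18 weeks limma called 0 of the 83, beside 1.52% of all genes, with 19 at an unadjusted p under 0.05 (22.9%, beside 18.1% of all genes). With group as the sole term 0 were called, and 7 were under 0.05 unadjusted (8.43%, beside 7.4%). Without the low-signal pair, with the filter set anew on the 7 arrays, 4 of 84 were called, beside 3.98% of all probe sets. Among the 83 genes, 3 were called without the pair, beside 580 of all 13616 genes. At 25 weeks limma called 2 higher and 7 lower, or 10.8%, beside 17.1% of all 13616 genes. With median centring 7 were higher and 3 lower, beside 10.4% and 3.02% of all probe sets. Of the 16 coactivators limma called 0 at 18 or at 25 weeks, with 6 at an unadjusted p under 0.05 each time (37.5%, beside 18.1% of all genes at 18 weeks and 32.7% at 25 weeks). At 18 weeks Kat2b, a histone acetyltransferase, was at -0.79 ± 0.18 (adjusted p = 0.0573, and 0.0374 without the pair), and Prmt1, an arginine methyltransferase, was at 1.03 ± 0.25 (adjusted p = 0.067, and 0.0122 without the pair). Those with the smallest p at 25 weeks were Ncoa7, a coactivator of estrogen receptors, at 1.02 ± 0.32 (adjusted p = 0.0507), and Pprc1, a PGC-1 relative, at 1.29 ± 0.42 (adjusted p = 0.0585). With median centring Pprc1 passed at 1.33 (limma adjusted p = 0.0365) and Prmt1 at 0.98 (0.0266). Without the low-signal pair Prmt1 passed at 25 weeks too (0.0121). No coactivator was called lower at 25 weeks in either setting.

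Of the 30 other Mediator subunits measured, 0 rose and 4 fell at 25 weeks after quantile normalization, the side on which Med1 lay. The 4 are 13.3% of the list, beside 8.01% of all genes lower and 9.08% higher. The difference of Med28 was -0.58 ± 0.11 (limma adjusted p = 0.00543), that of Med22 -1.02 ± 0.28 (0.0317), that of Med9 -0.78 ± 0.23 (0.042) and that of Med27 -0.70 ± 0.21 (0.0452), and on the deposited scale all 4 were above 0, at 0.27, 0.12, 0.21 and 0.28. The calls of Med22, Med9 and Med27 were lost with median centring (adjusted p = 0.0902, 0.0907 and 0.118), those of Med22 and Med27 with the replicate block (0.0682 and 0.109), and that of Med22 without the low-signal pair (0.0992). With median centring Med4, Med17 and Med20 were called higher, at 0.70, 0.87 and 0.60 (limma adjusted p = 0.0409, 0.0245 and 0.0454). Med28 stayed lower there, at -0.57 (0.0162). In that setting 10.4% of all probe sets were higher and 3.02% lower, so the one-sided count of the list depends on the scaling. After quantile normalization the median of the 30 was -0.32, beside -0.03 for all genes.

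Of 14 corepressors, Ctbp1, a C-terminal binding protein, rose by 0.72 ± 0.21 (limma adjusted p = 0.0424) and Tbl1xr1, a subunit of the Ncor1 complex, was lower at -0.73 ± 0.17 (0.015), a sign that turned to 0.35 on the deposited scale. The Ctbp1 call was lost without the low-signal pair (adjusted p = 0.14) and with the replicate block (0.0967), and that of Tbl1xr1 with median centring (0.104). Of 13 other orphan receptors, Nr1d2 (Rev-erb beta) rose by 0.64 ± 0.18 (0.0362) and Nr4a3 (Nor1), an immediate early gene, was lower at -1.84 ± 0.43 (0.0161), and -0.72 on the deposited scale. The Nr1d2 call was lost with the replicate block (adjusted p = 0.0857) and that of Nr4a3 without the low-signal pair (0.0848). Each direction made up 7.14% of the corepressors and 7.69% of these orphan receptors, beside 9.08% of all genes higher and 8.01% lower. Of 18 ligand-bound receptors listed, 7 passed the filter. Among those 7 limma called 0 at 25 weeks, beside 17.1% of all genes, and 0 were under 0.05 unadjusted, beside 32.7%. Nr1h3 and Thrb had the smallest p, with -0.60 ± 0.28 (adjusted p = 0.18) and -0.48 ± 0.31 (adjusted p = 0.32). Of 7 genes described as targets of Nr6a1, 3 passed the filter and 1 was lower, beside 8.01% of all genes. That was the growth factor gene Gdf9, at -0.97 ± 0.21 (limma adjusted p = 0.0117), and 0.10 on the deposited scale. The protamines Prm1 and Prm2 gave 0.05 ± 0.26 and -0.91 ± 0.35 without passing.

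Where a gene's probe set of highest mean signal, cross-hybridising ones aside, was called, the 3 genes nearest to it in pattern were found by Pearson correlation of log2 values over the 7 arrays outside the low-signal pair, among 13615 genes. For Ncoa2 they were Api5 (0.995), Unc13b (0.993) and Slmap (0.989), and over all 9 arrays these fell to -0.33, 0.32 and 0.49. For Nr2c2 1454851_at they were Zfp617 (0.99), Zfand2a (0.99) and Sav1 (0.988), with 0.11, 0.84 and 0.96 over all 9. For Ncoa3 they were Rchy1, Gk2 and Coq9, at 0.985 to 0.988 over the 7 arrays and 0.13 to 0.20 over the 9. So only Zfand2a and Sav1 kept a correlation above 0.5 with their gene when the low-signal pair was included. The highest 3 of 13615 correlations over 7 arrays are high by selection, and shared regulation was not tested. At 25 weeks Rchy1, Gk2 and Coq9 were at -0.03, -0.11 and -0.19, none past the threshold. Of the genes near Ncoa2 and Nr2c2, Api5, Slmap, Zfp617 and Sav1 passed it as higher, and Unc13b and Zfand2a did not.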

How the data were processed

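Each of the 9 arrays is an Affymetrix mouse array of spermatogonia RNA. The authors deposited linear MAS5 signal intensity for each probe set, per the submitters' processing notes. The sources used here do not give a MAS5 version, scaling target or genome build. Precision is limited by having 3 arrays per group. Signals were transformed as log2(signal + 3.259), the 25th percentile of all signals, and quantile normalized. The 64 control probe sets were dropped, as were those whose mean lay below the 40th percentile. Gene symbols come from a platform table (34958 probe sets with 1, 932 with several, 9211 with none). limma 3.58.1 in R 4.3.3 (lmFit, eBayes with a variance trend) was fitted to group plus a block for arrays with a trimmed mean (2% from each end) under 0.5 of the median, leaving 5 residual degrees of freedom, and was tested on simulated data.

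The genes, lists and the block were chosen with earlier results of these data known. Named genes are all members, the called members of each role list (at most 4 per comparison, or the 2 of smallest p), and the 3 genes most alike. Two-sided tests were used. Same-numbered control and 25-week arrays deviated together (r = 0.52, 0.52 and 0.69), so their numbers pair them by the rule applied, though this comes from the low-signal pair, both numbered 3; outside it r was -0.03. The numbers come from sample titles. Control and 18-week arrays gave -0.0047 to 0.075. Alternatives were other blocks, array weights, scalings, pseudocounts, filters and leaving out each array. The block of 3 array sets separates the low-signal pair, VAD 25-week replicates 1 and 2 (high poly-A signal) and the rest. With it, differences of 25 weeks from control rest on 1 control and 1 VAD 25-week array, those of the pair. That fit is among the alternative settings counted above.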

Additional observations from a re-analysis of the deposited data

How the results depend on the processing

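Counts of called probe sets of the 9 genes at 25 weeks were 7 as reported (4017 of all probe sets), 0 with group alone (0 of all), 4 with the replicate block that treats the same-numbered arrays as pairs (2599), 4 with no filter on low values (3265), 3 with no variance trend (2391), 5 with median centring (3617, with 2 members lower in place of 4) and 3 to 6 with 1 array left out (1787 to 4178); the lowest, 3, was without VAD 25-week replicate 2, and 4 came without control replicate 1, control replicate 2 or VAD 25-week replicate 1. The 25-week count was 10 with array weights (5644), 9 on the deposited scale, all higher (10578), and 6 without the low-signal pair (4253). At 18 weeks the count of 0 (396 of all probe sets) became 2 without the low-signal pair (1076) and 1 with array weights (725). It was 2 with a block of 3 array sets (964) and 1 with median centring (467). With 1 array left out it was 0 to 2 (37 to 1043), the 2 coming without control replicate 3 or VAD 25-week replicate 3. Between 25 and 18 weeks the 0 (0 of all) became 3 on the deposited scale (1806), and was 0 with any 1 array left out (0 to 389). The block of 3 array sets also called some of the 29 there. That fit rests on 1 VAD 25-week array, replicate 3, so no count is given. For the role lists at 25 weeks the 9 called became 0 with group alone, 14 with array weights, 17 with the block of 3 sets, 24 on the deposited scale, 5 with no filter, 5 with no trend and 3 to 11 with 1 array left out. With median centring 10 were called, 7 higher and 3 lower, in place of 2 higher and 7 lower, so the balance of directions turned. With the replicate block 6 were called, all lower, so both rises, of Ctbp1 and Nr1d2, were lost. At 18 weeks the 0 of the role lists became 4 without the pair and with the filter set anew, 3 with weights and 4 with the block of 3 sets. It was 2 with median centring and 0 to 4 with 1 array left out. The counts of all probe sets in these settings are those given above for 18 weeks. On the deposited scale Med1 1421907_at, Ncoa3 1422737_at and Nr2c2 1425014_at reversed to 0.52, 0.28 and 0.033. On that scale the median difference of all kept probe sets was 0.93. The cause of the differences in total signal between arrays was not tested. The replicate block ended the calls of Ncoa3, Med1 and Nr2c1 1458338_x_at and no other call of these genes. The pseudocount understates differences of probe sets with low signal.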
